A study of Sus scrofa with 24 samples.

Results

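The comparison described here sets the ileum of sows fed both supplements, extra fibre and N-carbamylglutamate (NCG), against the ileum of sows fed the plain low-fibre diet. It was chosen by its labels as the 3 ileum libraries of each of these diets, 6 of the 24 RNA sequencing libraries of the study. HN is the diet with 7.46% crude fibre and 0.05% NCG, and LF is the diet with 3.73% crude fibre and no NCG. The other ileum libraries, HF (7.46% crude fibre, no NCG) and LN (3.73% crude fibre, 0.05% NCG), entered the fit for the spread between libraries. All sows (Sus scrofa) received their diet from breeding to gestation day 114, with 100 sows per diet in the trial. Separate sows for the 3 libraries of a diet, or 1 place of sampling along the ileum, are not stated in the labels, so p-values measure the spread between these libraries, which may be technical.

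The ileum is the last stretch of the small intestine, where bile acids and vitamin B12 are taken up and where lymphoid follicles are dense. Dietary fibre reaches gut microbes undigested and is fermented to short-chain fatty acids. NCG mimics N-acetylglutamate, which switches on carbamoyl phosphate synthetase 1 (CPS1), the enzyme with which enterocytes start to make citrulline, the precursor of arginine. The study's title names the PI3K-Akt pathway, a kinase cascade of growth factor and nutrient signalling, among its subjects.

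Library totals were 11951729, 12910528 and 15670819 counts in HN 1 to 3, and 19896941, 13397821 and 14956852 counts in LF 1 to 3. Between 16310 and 16983 genes were detected in the 12 ileum libraries. The correlation of log2 CPM (read counts divided by library size, scaled between libraries by TMM) was 0.849 to 0.945 among HN libraries, 0.865 to 0.944 among LF libraries and 0.827 to 0.954 between the diets.

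The libraries did not all carry the genes of the same stretch of intestine. FABP6, the ileal bile acid binding protein, had 0.447, 774 and 37.6 CPM in the HN libraries, against 8167, 0.464 and 0 CPM in the LF libraries. SLC10A2, the bile acid transporter, and CUBN, the vitamin B12 receptor, were likewise high in HN 2 (24.8 and 113 CPM) and LF 1 (218 and 725 CPM) and at 1.32 CPM or less in the other 4 libraries. GATA4, a transcription factor of the proximal small intestine in mouse, had 136, 1.02 and 80.4 CPM in the HN libraries and 0.556, 96.3 and 75.6 CPM in the LF libraries. LCT, the gene of lactase, followed the same split, with 313, 2.71 and 121 CPM with HN, against 1.95, 54.5 and 138 CPM with LF. HN 2 and LF 1, 1 library of each diet, thus held the defining markers of distal ileum, and the other 4 held SLC10A2 and CUBN near 0, with FABP6 at 37.6 CPM in HN 3. The 5 distal ileum genes tested had a median log2 change of −2.67 and the 5 proximal ones 0.27, lists drawn up after their levels were seen, with no gene called and every gene overlapping between the diets.

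Muscle and lymphoid marker sums also differed between libraries, with overlap between the diets. The summed level of 26 smooth muscle markers was 1954, 9054 and 1804 CPM in the HN libraries, against 3062, 14207 and 67200 CPM in the LF libraries. ACTA1, skeletal muscle actin, had 0, 0.0602 and 0 CPM with HN, against 0.139, 16.5 and 128 CPM with LF. The summed level of 27 T and NK cell markers was 1033, 1788 and 924 CPM with HN and 1673, 479 and 266 CPM with LF. In bulk tissue, fewer cells of a type and less RNA per cell cannot be told apart.

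**Figure D1:**
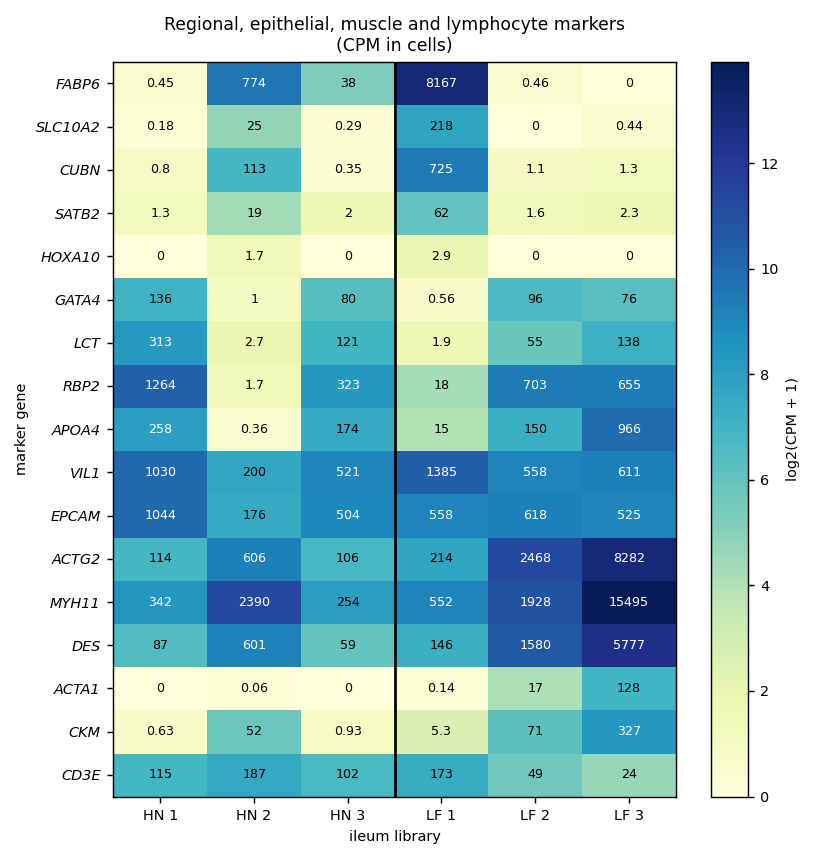
Level of marker genes in the 3 HN and 3 LF ileum libraries (columns), with CPM written in each cell and colour on the log2(CPM + 1) scale. HN 2 and LF 1 hold FABP6 at 774 and 8167 CPM with GATA4 near 1 CPM, and LF 2 and LF 3 hold the most ACTG2, DES and ACTA1.

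In the ileum almost every gene that passed the test was higher with HN, among them PGAP1, LTN1, PPIP5K2, YTHDC2 and PHC3, and PPP1R3B alone was lower. Of 15103 genes tested with edgeR's quasi-likelihood test, 283 were higher in HN (1.87%) and 1 was lower (0.00662%) at an adjusted p under 0.05. The higher genes were raised 1.69-fold to 6.52-fold, with a median of 2.82-fold, and 8 of them have only a locus number as name. In all 283 the 3 HN libraries lay above the 3 LF libraries. Choosing genes by p on these same libraries favours such separation, so it adds no separate support here or for the genes below. Of all tested genes 9.24% lay above and 8.10% below. The median log2 change over all tested genes was −0.08, and 43.3% of them had a change above 0.

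These calls rest on few libraries. Omitting HN 2, LF 1, LF 2 or LF 3 left 0 of the 284 calls and omitting HN 1 left 1, while 303 genes were called without HN 3. The count was 98, 176, 103, 162, 300 and 480 without HF 1, HF 2, HF 3, LN 1, LN 2 and LN 3. It was also 0 with only the 6 HN and LF libraries in the fit (1404 genes at an unadjusted p under 0.05) and once HN 2, HF 2 and LF 1, in which FABP6 exceeded 500 CPM, were omitted. DESeq2 called 777 higher and 135 lower on the same counts.

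**Figure D2:**
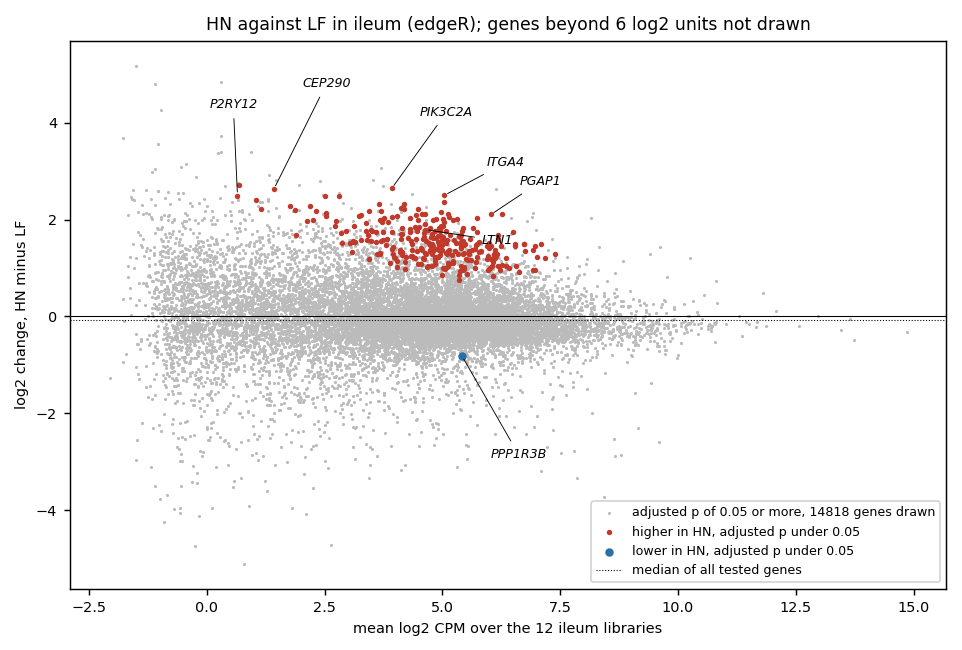
Log2 change (HN minus LF) against mean log2 CPM over the 12 ileum libraries for 15102 of 15103 tested genes, each a point (ACTA1, beyond 6 log2 units, is not drawn). The 283 called higher genes lie between 0.76 and 2.71, and PPP1R3B is the called lower gene.

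PGAP1, an enzyme of the endoplasmic reticulum that removes an acyl chain from GPI anchors (gene ID 100620753, chromosome 15, 100733552 to 100820603, in Sscrofa11.1), had 137, 100.0 and 83.5 CPM in the HN libraries, against 25.6, 26.4 and 22.4 CPM in the LF libraries. Every HN library lay more than 3-fold above every LF library, and the fitted difference was 4.30-fold (log2 change 2.105 ± 0.215 (SE), adjusted p = 0.0159). PTAR1, a prenyltransferase alpha subunit repeat protein, had 39.2, 53.2 and 39.1 CPM with HN, against 10.6, 11.98 and 12.5 CPM with LF (log2 change 1.91 ± 0.246 (SE), adjusted p = 0.0197). DENND4A, an exchange factor for Rab GTPases of vesicle traffic, had 41.4, 48.2 and 37.5 CPM with HN, against 14.8, 17.6 and 12.6 CPM with LF (log2 change 1.496, adjusted p = 0.0197). In both genes the groups stood well apart and the LF libraries differed little among themselves. TMF1, a golgin that tethers vesicles at the Golgi, had 40.7, 31.0 and 38.8 CPM with HN, against 9.08, 9.58 and 8.99 CPM with LF (log2 change 1.999, adjusted p = 0.0204).

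Genes of ubiquitin ligases, a deubiquitinase and an RNA helicase were among those of smallest p. LTN1, the ubiquitin ligase that marks nascent chains on stalled ribosomes (gene ID 106505847, chromosome 13, 192295764 to 192358762), had 40.6, 39.0 and 33.9 CPM in the HN libraries, against 11.07, 9.43 and 12.2 CPM in the LF libraries (log2 change 1.79 ± 0.194 (SE), adjusted p = 0.0159). USP16, a deubiquitinase of histone H2A whose gene lies near LTN1 on chromosome 13 (192376850 to 192406474, with RWDD2B between them), had 40.5, 34.9 and 30.9 CPM with HN, against 12.5, 10.9 and 11.8 CPM with LF (log2 change 1.59, adjusted p = 0.0204). UBR1, a ligase that reads the amino-terminal residue of proteins, had 47.1, 50.9 and 45.9 CPM with HN, against 19.6, 26.2 and 21.9 CPM with LF, and its fold of 2.13 was the smallest of these 15 genes (log2 change 1.09, adjusted p = 0.0204). YTHDC2, an RNA helicase that binds N6-methyladenosine (gene ID 100519357, chromosome 2, 118003402 to 118092176), had 53.1, 50.5 and 39.0 CPM with HN, against 19.8, 17.3 and 18.8 CPM with LF (log2 change 1.35, adjusted p = 0.0159). HN 3 was the lowest HN library in LTN1, USP16, UBR1 and YTHDC2, and lay above each LF library in all of them.

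PPIP5K2, N4BP2, PPP4R3B and SKIL were in the same set. PPIP5K2, a kinase that makes inositol pyrophosphates (gene ID 100625306, chromosome 2, 108596733 to 108690859), had 30.4, 33.6 and 28.4 CPM in the HN libraries, against 8.62, 6.03 and 5.04 CPM in the LF libraries (4.67-fold, log2 change 2.22 ± 0.255 (SE), adjusted p = 0.0159). PPP4R3B, a regulatory subunit of protein phosphatase 4, had 63.5, 78.1 and 58.3 CPM with HN, against 16.7, 16.1 and 16.7 CPM with LF (log2 change 2.02, adjusted p = 0.0197). The LF libraries of PPP4R3B differed by less than 1 CPM, while the HN libraries spread more widely. SKIL, a corepressor of SMAD proteins in transforming growth factor beta signalling, had 72.4, 62.2 and 43.5 CPM with HN, against 16.6, 15.1 and 12.9 CPM with LF (log2 change 1.998, adjusted p = 0.0204). N4BP2, a protein with a polynucleotide kinase domain, had 47.7, 43.6 and 38.6 CPM with HN, against 10.01, 12.1 and 7.75 CPM with LF (log2 change 2.12, adjusted p = 0.0159).

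Nuclear proteins made up the rest. PHC3, a subunit of Polycomb repressive complex 1, had 63.2, 79.8 and 64.2 CPM with HN, against 18.3, 19.3 and 9.87 CPM with LF (log2 change 2.12, adjusted p = 0.0159). ZNF146, a zinc finger protein, was even across the HN libraries, with 38.2, 39.6 and 37.97 CPM with HN, against 12.6, 12.5 and 9.87 CPM with LF (log2 change 1.73, adjusted p = 0.0204). ZBED5, a gene derived from a transposase, had 65.8, 69.8 and 47.3 CPM with HN, against 20.5, 21.7 and 19.1 CPM with LF (log2 change 1.58, adjusted p = 0.0204). In each of these 3 genes the lowest HN library lay well above the highest LF library.

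**Figure D3:**
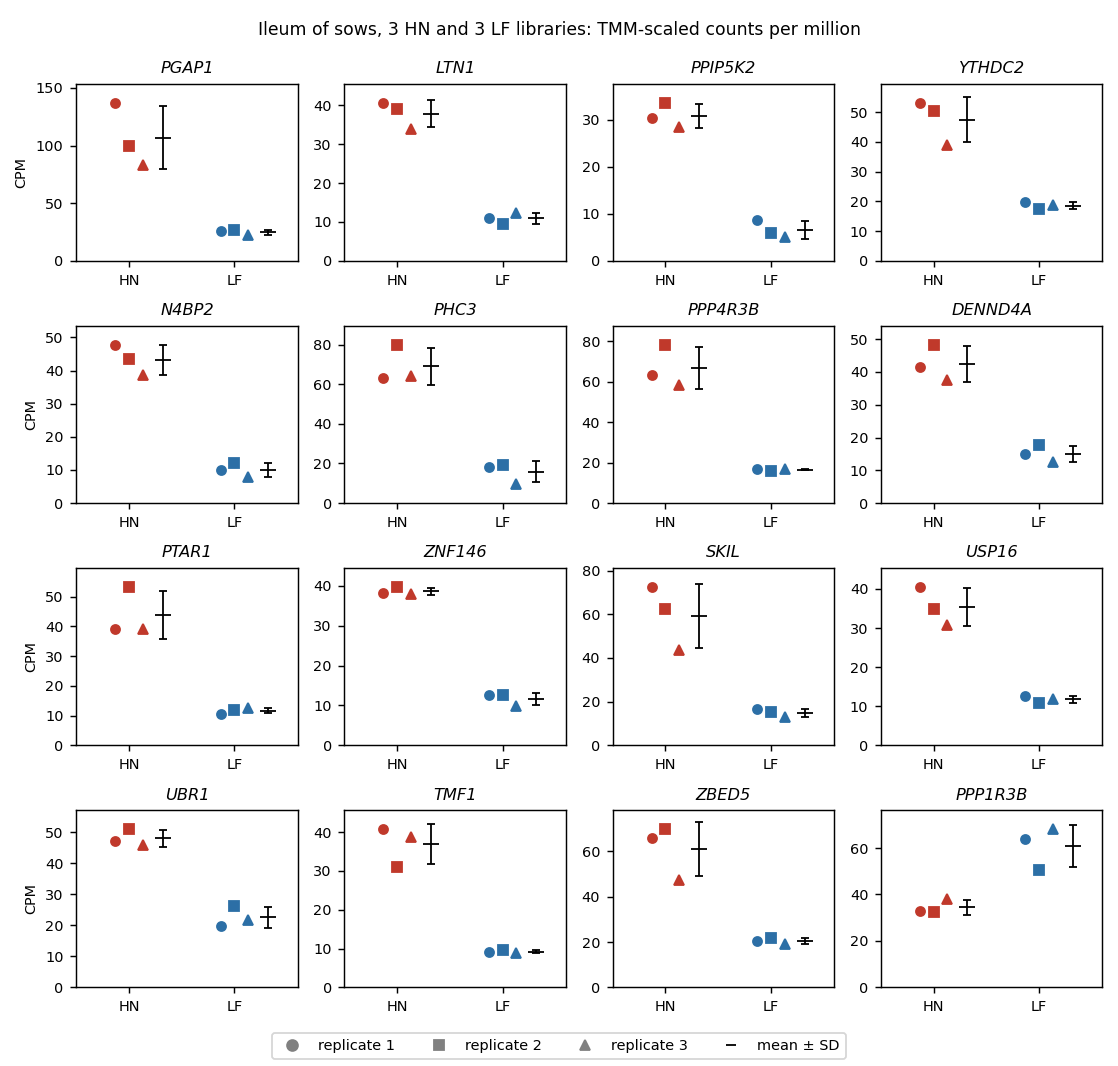
CPM of the 15 higher genes of smallest adjusted p and of PPP1R3B in the ileum, HN left of LF, with a symbol per replicate and the mean ± SD (n = 3) beside each group. The groups do not overlap in any panel, and PPP1R3B is the panel in which HN lies below LF.

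The largest fold changes among called genes with non-overlapping libraries were found in genes of other functions, several at low level. PIK3C2A, a class II phosphoinositide 3-kinase of endocytosis (gene ID 100514626, chromosome 2, 41829969 to 42024062), had 25.01, 30.001 and 28.4 CPM in the HN libraries, against 4.45, 4.56 and 4.31 CPM in the LF libraries and was 6.25-fold higher (log2 change 2.64 ± 0.405 (SE), adjusted p = 0.0204). ITGA4, the integrin alpha subunit with which lymphocytes home to the gut, had 68.7, 108 and 67.6 CPM with HN, against 18.7, 16.8 and 7.53 CPM with LF (log2 change 2.502 ± 0.470 (SE), adjusted p = 0.0294). Here HN 2 was the highest and LF 3 the lowest library, as in the T and NK cell marker sums, and the libraries between were in another order. LF 1, with a sum of 1673 CPM against 1033 and 924 CPM in HN 1 and HN 3, had less ITGA4 than both. The part of T and NK cells in the ITGA4 values was not tested. FAM208A, a subunit of the HUSH silencing complex, had 47.7, 96.6 and 61.3 CPM with HN, against 17.6, 12.9 and 9.43 CPM with LF, with the same 2 libraries at the ends (log2 change 2.36, adjusted p = 0.0206).

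CEP290, a protein of the ciliary transition zone, had 3.39, 5.96 and 5.47 CPM with HN, against 1.07, 0.850 and 0.438 CPM with LF (log2 change 2.63, adjusted p = 0.0416). P2RY12, an ADP receptor of platelets and microglia, had 2.77, 4.70 and 1.69 CPM with HN, against 0.417, 0.541 and 0.658 CPM with LF (log2 change 2.496, adjusted p = 0.0434). TET1, which oxidises 5-methylcytosine in DNA, had 4.64, 3.98 and 2.85 CPM with HN, against 0.973, 0.695 and 0.438 CPM with LF (log2 change 2.41, adjusted p = 0.0264). These 3 genes were below 6 CPM in all 6 libraries, so their folds of 6.20, 5.64 and 5.33 rest on few counts in the LF libraries. CEBPZ, a CCAAT-binding protein, and ZNF518A, a zinc finger protein, had log2 changes of 2.49 and 2.33. RIF1, which steers the repair of broken DNA ends, had 25.4, 41.6 and 40.5 CPM with HN, against 8.57, 6.41 and 6.58 CPM with LF (log2 change 2.31, adjusted p = 0.0239).

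Zinc finger genes with a ZNF symbol formed the largest called group of the families counted. Of 245 tested, 20 were higher and none was lower (8.16%, against 1.87% of all tested genes), and the family median was 0.12. All 3 HN libraries lay above the LF libraries in 65 of them (26.5%, against 9.24% of all tested genes) and below in 16 (6.53%, against 8.10%). ZNF292 had 28.7, 49.8 and 31.6 CPM with HN, against 11.9, 6.03 and 4.90 CPM with LF (log2 change 2.26, adjusted p = 0.0490), with HN 2 the highest library. ZNF24 was the most abundant, with 104, 116 and 85.1 CPM with HN, against 40.7, 40.3 and 46.5 CPM with LF (log2 change 1.26, adjusted p = 0.0204). The log2 changes of the 20 ran between 1.19 (ZNF184) and 2.33 (ZNF518A). Many zinc finger genes resemble each other in sequence, and how reads matching several genes were counted is not given in the sources used here, so single members are uncertain.

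Chromatin, chromosome and DNA repair genes were counted from lists drawn up after the calls had been seen, so their shares describe the calls and are not independent of them. Of 32 chromatin remodelling genes 7 were higher (21.9%, against 1.87% of all tested genes): CHD1, CHD9, SMARCA5, SMARCAD1, BAZ1A, BAZ2B and INO80D. CHD9 had 46.3, 52.0 and 43.4 CPM with HN, against 13.8, 15.9 and 11.9 CPM with LF (log2 change 1.77, adjusted p = 0.0204). SMARCA5, the ISWI motor that spaces nucleosomes, had 86.6, 129 and 81.5 CPM with HN, against 45.8, 37.2 and 37.9 CPM with LF (log2 change 1.30, adjusted p = 0.0355). The median of the list was 0.12, with 20 members above 0 and 12 below.

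The structural maintenance of chromosomes and cohesin list had the largest share called of the lists described, 46.2%, against 1.87% of all tested genes. Of 13 tested genes 6 were higher (SMC3, SMC4, SMC5, STAG1, STAG2 and WAPL), 11 had a change above 0, and the median was 1.47. STAG2, a cohesin subunit on the X chromosome, had 75.2, 128 and 68.8 CPM with HN, against 33.4, 22.6 and 24.8 CPM with LF (log2 change 1.75, adjusted p = 0.0264). SMC4, a condensin motor, had 31.6, 61.3 and 38.4 CPM with HN, against 14.1, 10.1 and 6.65 CPM with LF (log2 change 2.09, adjusted p = 0.0404). Both were highest in HN 2, the library with the highest sum of T and NK cell markers (1788 CPM). LF 1, with a sum of 1673 CPM, had the highest LF value of both genes and lay below each HN library. The part of T and NK cells in these values was not tested.

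Among 57 DNA damage and repair genes, 10 were higher (17.5%, against 1.87% of all tested genes): ATM, ATR, NBN, RAD50, RIF1, PMS1, WRN, POLK, REV3L and ERCC6L2. ATM and ATR, the kinases that signal DNA breaks and stalled forks, had log2 changes of 1.37 (adjusted p = 0.0238) and 1.997 (adjusted p = 0.0206). RAD50, which holds DNA ends together with NBN, was even across libraries, with 26.1, 26.9 and 27.8 CPM with HN, against 9.27, 8.19 and 7.16 CPM with LF (log2 change 1.71, adjusted p = 0.0454). NBN had 26.8, 24.2 and 17.5 CPM with HN, against 7.27, 4.87 and 4.60 CPM with LF (log2 change 2.03, adjusted p = 0.0204). Of 38 cell cycle genes none was called and 18 had a change above 0, with KIF11, a mitotic kinesin, at 1.59 (adjusted p = 0.323).

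Polycomb repressive complex 1 genes had 2 of 25 called higher (against 1.87% of all tested genes), PHC3 and PCGF5 (log2 change 1.61, adjusted p = 0.0204), with a list median of −0.02. Genes of N6-methyladenosine had 1 of 22 called (4.55%), YTHDC2, with 5 members (22.7%, against 9.24% of all tested genes) whose HN libraries all lay above LF.

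Regulators of splicing (SR proteins, CLK kinases and RBM, PRPF and LUC7L factors, a list also drawn up after the calls were seen) had 11 of 66 called higher, among them CLK1, CLK4, SRSF11, LUC7L3, SREK1 and PRPF39. That was 16.7% of the list, against 1.87% of all tested genes. SRSF11, an SR-related splicing factor, had 165, 229 and 116 CPM with HN, against 73.3, 54.6 and 52.4 CPM with LF (log2 change 1.499, adjusted p = 0.0332). LUC7L3, a U1 snRNP-associated factor, had 155, 204 and 133 CPM with HN, against 68.4, 56.6 and 49.2 CPM with LF (log2 change 1.497, adjusted p = 0.0343). Both reached over 100 CPM in each HN library and 73.3 CPM or less in each LF library.

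The list of Sm, LSm and SF3 genes, which holds core spliceosome proteins and also LSM1 of mRNA decapping, had a median below 0. The difference between this list and the splicing regulators was not tested. None of 33 was called, their median was −0.31, and in 18 of them (54.5%) all 3 HN libraries lay below LF, against 8.10% of all genes. These genes are short (median 1477 bases), and removal of the length trend brought their median log2 change to −0.11. LSM1, a subunit of the ring that starts mRNA decapping, had 17.2, 11.6 and 16.0 CPM with HN, against 22.1, 20.1 and 23.2 CPM with LF (log2 change −0.55, adjusted p = 0.240). SF3B1, the large subunit that recognises the branch point and whose deposited length is 9161 bases, had higher values with HN, at 619, 808 and 555 CPM with HN, against 359, 274 and 261 CPM with LF (log2 change 1.15, adjusted p = 0.0756). In the authors' deposited pathway annotation, Spliceosome held 123 tested genes, of which 7 were called higher (5.69%, against 1.87% of all tested genes), 17 had all HN libraries above LF (13.8%, against 9.24%) and 41 had them below (33.3%, against 8.10%).

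**Figure D4:**
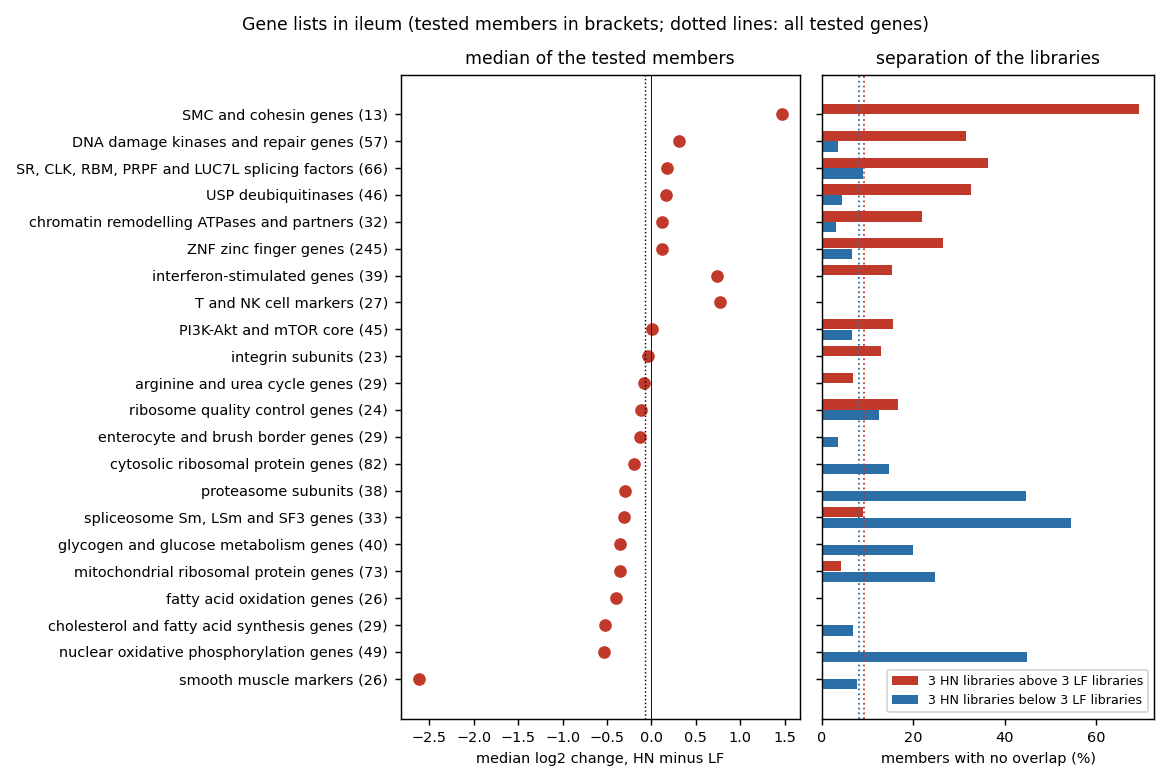
Gene lists in the ileum, with the median log2 change (HN minus LF) of the tested members on the left and the percentage of members whose 3 HN libraries lie wholly above or below the 3 LF libraries on the right. Dotted lines mark all tested genes (median −0.08, 9.24% above, 8.10% below), and the lists of small-subunit complexes lie left of the line with up to 54.5% of members below.

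Deubiquitinases of the USP family had 7 of 46 called higher (15.2%, against 1.87% of all tested genes): USP1, USP8, USP15, USP16, USP34, USP47 and USP53. All 3 HN libraries lay above LF in 15 of the 46 (32.6%, against 9.24% of all tested genes) and below in 2 (4.35%, against 8.10%). USP34, which acts on axin in Wnt signalling, had 85.6, 111 and 92.1 CPM with HN, against 49.7, 42.5 and 35.2 CPM with LF (log2 change 1.18, adjusted p = 0.0256). USP8, which trims ubiquitin from receptors at endosomes, had 38.2, 45.6 and 36.2 CPM with HN, against 17.1, 17.5 and 16.3 CPM with LF (log2 change 1.23, adjusted p = 0.0421). Of 40 cullins and KLHL adaptors, KLHL28 (log2 change 2.02, adjusted p = 0.0204) and CUL5, a cullin scaffold (log2 change 1.80, adjusted p = 0.0204), were higher. CUL5 had 32.1, 34.7 and 30.5 CPM with HN, against 9.73, 9.27 and 8.99 CPM with LF, with less than 5 CPM between libraries of a diet.

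Ribosome quality control genes had 3 of 24 called higher (12.5%, against 1.87% of all tested genes). This list, like every list here, was chosen with earlier results of these data known. Shares called therefore describe the calls and are not independent of them. Beside LTN1 these were NEMF, which recruits LTN1 to the stalled subunit, and ASCC3, a helicase that splits collided ribosomes. NEMF had 21.5, 28.4 and 20.8 CPM with HN, against 5.84, 5.64 and 4.09 CPM with LF (log2 change 2.18, adjusted p = 0.0240), and ASCC3 had 48.1, 36.6 and 35.5 CPM with HN, against 22.9, 24.9 and 18.1 CPM with LF (log2 change 0.87, adjusted p = 0.0485). The list's median was −0.12. In 4 of its members (16.7%, against 9.24% of all tested genes) all HN libraries lay above LF, and in 3 (12.5%, against 8.10%) below. UPF2, a factor of nonsense-mediated decay, was the 1 called of 15 genes of that pathway (6.67%; log2 change 1.46, adjusted p = 0.0337).

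The PI3K-Akt and mTOR core list, the pathway of the study's title, had 4 of 45 members called higher (8.89%, against 1.87% of all tested genes) and a median of 0.01. Without overlap, 7 members lay above (15.6%, against 9.24% of all tested genes) and 3 below (6.67%, against 8.10%). RICTOR, the defining subunit of mTOR complex 2, had 42.2, 55.5 and 30.4 CPM in the HN libraries, against 12.0003, 7.96 and 7.45 CPM in the LF libraries (log2 change 2.22 ± 0.350 (SE), adjusted p = 0.0204). INPP4B, a phosphatase of phosphatidylinositol 3,4-bisphosphate, had 34.6, 65.5 and 37.0 CPM with HN, against 16.4, 15.1 and 13.3 CPM with LF (log2 change 1.61, adjusted p = 0.0266). RPS6KB1, the S6 kinase downstream of mTOR complex 1, had 77.8, 80.8 and 51.2 CPM with HN, against 34.1, 35.5 and 35.6 CPM with LF (log2 change 0.997, adjusted p = 0.0291). The fourth was PIK3C2A. Each had its highest value in HN 2, and in RPS6KB1 the LF libraries differed by less than 2 CPM.

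PIK3CA, the catalytic subunit of class I PI3K, had 26.2, 56.6 and 26.6 CPM with HN, against 11.2, 8.42 and 12.1 CPM with LF, and AKT1, the kinase it activates, had 98.1, 96.5 and 127 CPM with HN, against 137, 140.5 and 159.8 CPM with LF. Neither passed (log2 changes 1.79 and −0.44, adjusted p = 0.0573 and 0.318). The HN libraries lay above LF for PIK3CA and below LF for AKT1. By the authors' deposited pathway annotation, 292 PI3K-Akt genes were tested and 6 were called higher (2.05%, against 1.87% of all tested genes), with a median of −0.10, and mTOR genes gave 4 of 138 with a median of −0.15. With this wider definition the share called was close to that of all genes.

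Integrin subunits had 2 of 23 called higher (8.70%, against 1.87% of all tested genes). ITGB8, which with ITGAV activates latent transforming growth factor beta, had 32.2, 26.8 and 22.5 CPM with HN, against 7.69, 5.41 and 4.09 CPM with LF (log2 change 2.24, adjusted p = 0.0221). The other was ITGA4, and the median of the list was −0.04. None of 39 growth factors and receptors was called, although 7 (17.9%, against 9.24% of all tested genes) had all HN libraries above LF. ERBB4, a neuregulin receptor, had 7.68, 8.19 and 12.7 CPM with HN, against 2.41, 3.71 and 1.75 CPM with LF (log2 change 1.86, adjusted p = 0.140). HGF, the ligand of the MET receptor, had 6.97, 5.36 and 4.08 CPM with HN, against 1.53, 1.39 and 0.658 CPM with LF (log2 change 2.18, adjusted p = 0.250). In the list of transforming growth factor beta signalling SKIL was the 1 called of 31 (3.23%, against 1.87% of all tested genes). PPIP5K2 was the 1 called of 21 inositol phosphate kinases and phosphatases (4.76%).

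Single members passed in 4 further lists. The shares called were 4.35% (circadian clock), 6.25% (aryl hydrocarbon receptor), 5.56% (goblet cell and mucus) and 3.70% (GPI anchor), against 1.87% of all tested genes. RORA, a nuclear receptor of the circadian clock, had 34.7, 55.1 and 27.3 CPM with HN, against 13.6, 9.35 and 10.5 CPM with LF (log2 change 1.80, adjusted p = 0.0204), as 1 of 23 clock genes. AHR, the receptor that senses microbial and dietary indoles, had 65.5, 88.5 and 52.1 CPM with HN, against 34.1, 26.5 and 19.4 CPM with LF (log2 change 1.36, adjusted p = 0.0294), as 1 of 16 genes of its list. C1GALT1, which builds the core 1 glycans of mucins, had 65.3, 70.0 and 110.4 CPM with HN, against 42.3, 44.1 and 36.4 CPM with LF (log2 change 1.001, adjusted p = 0.0359), as 1 of 18 goblet cell and mucus genes whose median was −0.29 (0.062 without HN 2). HN 3 was the highest HN library for C1GALT1, unlike most genes above. Golgi tethering and coat genes had 2 of 35 called (5.71%, against 1.87% of all tested genes), TMF1 and USO1 (log2 change 1.46, adjusted p = 0.0248), and PGAP1 was the 1 called of 27 GPI anchor genes.

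Of interferon-stimulated genes 1 of 39 was called (2.56%, against 1.87% of all tested genes), while 37 of 39 had a change above 0 and the median was 0.74. IFIH1, the cytosolic sensor of long RNA duplexes (MDA5), had 30.7, 25.8 and 13.9 CPM in the HN libraries, against 8.71, 4.79 and 3.43 CPM in the LF libraries (log2 change 2.05 ± 0.448 (SE), adjusted p = 0.0490). HN 3 stood closer to LF 1 than to HN 1. In 6 members (15.4%, against 9.24% of all tested genes) the 3 HN libraries lay above LF. The summed level of the list was 3890.3, 2227 and 1517 CPM with HN, against 2107, 1314 and 1096 CPM with LF, so the groups overlapped. Left out 1 at a time, the libraries gave medians of 0.23 to 1.11 for this list.

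Lymphocyte and antigen presentation lists had no called member. T and NK cell markers had a median of 0.77 (23 of 27 above 0), B and plasma cell markers 0.82 (16 of 22) and antigen presentation genes 0.30 (22 of 27). THEMIS, a T cell signalling protein, had 18.3, 23.8 and 9.26 CPM with HN, against 12.1, 3.79 and 3.80 CPM with LF (log2 change 1.38, adjusted p = 0.264). FCRL4, a receptor of mucosal memory B cells, had 1.25, 30.2 and 6.11 CPM with HN, against 6.39, 0.541 and 0.658 CPM with LF (log2 change 2.28, adjusted p = 0.573). LF 1 overlapped the HN libraries in both, and HN 2 and LF 1, the libraries with FABP6, were the highest of their diets for FCRL4. ERAP2, which trims peptides for class I molecules, had 119.8, 121 and 63.0 CPM with HN, against 65.5, 41.3 and 37.4 CPM with LF (log2 change 1.07, adjusted p = 0.101). Over single omissions the medians ran 0.30 to 1.93 for T and NK cells, −0.25 (without HN 2) to 2.23 for B and plasma cells and −0.036 (without LF 3) to 0.70 for antigen presentation. With the marker covariates they were −0.27, −1.53 and −0.29, on the other side of 0. The part of lymphoid tissue in the interferon and lymphocyte values was not tested.

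PPP1R3B, which ties protein phosphatase 1 to glycogen, was the gene called lower (gene ID 100515931, chromosome 15, 56002383 to 56013477). It had 32.8, 32.6 and 38.3 CPM in the HN libraries, against 64.0, 50.5 and 68.0 CPM in the LF libraries, a ratio of 0.568 (log2 change −0.82 ± 0.179 (SE), adjusted p = 0.0494). The groups were separate, with LF 2 the nearest to HN, and DESeq2 called 135 lower genes where edgeR called this 1. Its list, 40 genes of glycogen and glucose metabolism, had a median of −0.36, with PPP1R3B the 1 called. Without overlap, 8 members lay below (20%, against 8.10% of all tested genes) and none above (against 9.24%). G6PC, glucose-6-phosphatase, was among the largest differences, with 8.93, 1.39 and 3.67 CPM with HN, against 16.3, 43.8 and 32.9 CPM with LF (log2 change −2.74, adjusted p = 0.102).

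Other genes of small p in the lower direction did not pass the threshold. PGP, a phosphatase that clears glycerol 3-phosphate and phosphoglycolate, had 14.6, 9.46 and 11.5 CPM with HN, against 35.6, 22.4 and 29.96 CPM with LF (log2 change −1.31 ± 0.292 (SE), adjusted p = 0.0520). LRPAP1, the chaperone of LDL receptor family proteins, had 53.1, 51.2 and 60.0 CPM with HN, against 83.7, 85.8 and 78.4 CPM with LF (log2 change −0.59, adjusted p = 0.0644). GNPDA1, which deaminates glucosamine 6-phosphate, had 32.4, 33.5 and 34.0 CPM with HN, against 45.9, 49.9 and 58.8 CPM with LF (log2 change −0.63, adjusted p = 0.0691), and APIP of the methionine salvage pathway had 27.9, 23.3 and 24.98 CPM with HN, against 36.1, 42.5 and 36.4 CPM with LF (log2 change −0.60, adjusted p = 0.0773). The groups did not overlap in any of these 4. EPB41L1, a membrane skeleton protein, and MBOAT1, a lysophospholipid acyltransferase, had log2 changes of −0.86 and −0.69 (adjusted p = 0.0746 and 0.0863). CDX1, the intestinal homeobox gene, had 5.27, 2.89 and 4.02 CPM with HN, against 13.5, 10.8 and 9.94 CPM with LF (log2 change −1.49, adjusted p = 0.130).

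Among non-overlapping genes with a mean log2 CPM above 0, a minimum that leaves out ACTA1, most of the 10 largest differences in the lower direction had their highest value in LF 3. FAM46B, a poly(A) polymerase, had 7.41, 3.49 and 3.38 CPM with HN, against 16.1, 13.8 and 88.9 CPM with LF (log2 change −3.06, adjusted p = 0.0559). TUBB6, a beta tubulin, had 1.70, 3.31 and 3.20 CPM with HN, against 6.35, 16.0 and 43.6 CPM with LF (log2 change −2.99, adjusted p = 0.0677). PRIMA1, the membrane anchor of acetylcholinesterase, had 5.81, 6.99 and 6.70 CPM with HN, against 8.25, 18.5 and 83.2 CPM with LF (log2 change −2.49, adjusted p = 0.225). BVES, a muscle membrane protein, FBXL22, an F-box protein of the sarcomere, CHRDL2 and CHADL had log2 changes of −2.33, −2.53, −2.49 and −2.28, with LF 3 the highest library in each. MOXD1, a monooxygenase-like protein, was highest in LF 2, with 0.0893, 1.02 and 0.757 CPM with HN, against 3.01, 10.97 and 2.34 CPM with LF, and IL1RL1, the interleukin 33 receptor, was high in LF 2 and LF 3, with 1.79, 2.53 and 1.69 CPM with HN, against 2.59, 15.7 and 20.6 CPM with LF.

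LF 3 was also the library with the most smooth muscle RNA. All 26 smooth muscle markers had a change below 0, with a median of −2.62, and none was called. ACTG2, the enteric smooth muscle actin, had 114, 606 and 106 CPM with HN, against 214, 2468 and 8282 CPM with LF (log2 change −3.73, adjusted p = 0.159). In 24 of the 26 the groups overlapped, and in 2 (7.69%, against 8.10% of all tested genes) the HN libraries all lay below LF. Without single libraries the median ranged between −3.54 and −0.92. Of 5 skeletal muscle markers none was called, 3 had a change above 0 and the median was 0.48, but it was −1.21 to 0.22 over the single omissions, below 0 in 9 of 12. It was −1.21 also without HF 1 or LN 1, which are of neither diet compared. Each fit ran the filter on low counts anew, so the markers tested can differ between fits. In the main fit the summed level of the 5 was 14.2, 65.2 and 11.4 CPM with HN, against 11.12, 93.5 and 458 CPM with LF. Fibroblast and matrix genes had a median of −0.42 (2 of 19 above 0, and −0.090 without LF 3), with FN1, fibronectin, at 274, 576 and 339 CPM with HN, against 389.7, 903 and 2238 CPM with LF (log2 change −1.57, adjusted p = 0.263). The part of muscle content in the lower values was not tested beyond the fit with smooth muscle and enterocyte marker levels as covariates, in which 244 genes were higher and 17 lower and 150 of the 283 calls were shared.

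Genes of complexes built from many small subunits had slightly lower values with HN, of which none passed the test. All 49 nuclear oxidative phosphorylation genes had a change below 0, with a median of −0.53, but none was called. In 22 (44.9%, against 8.10% of all tested genes) the HN libraries all lay below LF. NDUFB1, an accessory subunit of complex I, had 14.6, 8.13 and 14.4 CPM with HN, against 22.9, 22.3 and 22.4 CPM with LF (log2 change −0.87, adjusted p = 0.110). NDUFA11, another, had 26.6, 10.8 and 24.1 CPM with HN, against 30.7, 37.5 and 55.6 CPM with LF (log2 change −1.01, adjusted p = 0.289). HN 2 was the lowest library in both. Proteasome subunits had a median of −0.29, none of 38 called and 17 (44.7%) below without overlap, for example PSMB1 with 83.9, 68.1 and 91.3 CPM with HN, against 109.6, 119.8 and 119 CPM with LF (log2 change −0.52, adjusted p = 0.319).

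No ribosomal protein gene was called. The 73 mitochondrial ones had a median of −0.36 with 18 (24.7%) below, and the 82 cytosolic ones −0.19 with 12 (14.6%) below without overlap. Of all tested genes 8.10% lay below. MRPL57, a short-transcript subunit, had 7.95, 5.54 and 8.21 CPM with HN, against 12.5, 16.0 and 14.5 CPM with LF (log2 change −0.99, adjusted p = 0.104). MRPL1 has a deposited length of 14048 bases and had higher values with HN, 35.02, 36.0 and 28.5 CPM with HN, against 20.5, 18.9 and 18.6 CPM with LF (log2 change 0.78, adjusted p = 0.129). The median length of the cytosolic ribosomal genes was 767 bases and that of the oxidative phosphorylation genes 828 bases, against 3721 bases over all tested genes. With the length trend removed from each library, the medians became −0.31 for oxidative phosphorylation, −0.13 for the proteasome, −0.16 for mitochondrial and 0.07 for cytosolic ribosomal genes.

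None of the 13 mitochondrially encoded genes was called. Their median was 0.11 (−0.12 without HN 1) and 9 of 13 were above 0. ND2, a complex I subunit, had 1761, 1289.9 and 1363 CPM with HN, against 644, 604 and 667 CPM with LF (log2 change 1.205, adjusted p = 0.139), with no overlap of the groups. ND4 had 2462, 1597 and 1902 CPM with HN, against 1081, 1293 and 1229 CPM with LF (log2 change 0.73, adjusted p = 0.382). Mitochondrially encoded genes as a whole took 7.38%, 5.06% and 5.25% of the counts of the HN libraries and 6.32%, 6.22% and 5.90% of those of the LF libraries.

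Lipid metabolism genes were below 0 as lists with none called. Fatty acid oxidation had a median of −0.40 (2 of 26 above 0) and cholesterol and fatty acid synthesis −0.52 (2 of 29 above 0). Over single omissions they were −0.83 (without HN 1) to −0.13 (without HN 2) and −0.77 to −0.15 (without LF 1), and without the libraries high in FABP6 the synthesis median was 0.084. HADHA, of the mitochondrial trifunctional protein, had 323, 151 and 194 CPM with HN, against 296, 499 and 393 CPM with LF (log2 change −0.83, adjusted p = 0.288), with HN 1 inside the LF range. HN 2, in which the enterocyte marker sum was lowest (3046 CPM, against 20007 and 7671 CPM in HN 1 and HN 3), had the lowest value of HADHA. In the LF libraries that sum was 15982, 7778 and 8573 CPM.

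CPS1, the enzyme that NCG activates, and other enzymes of the urea cycle and arginine metabolism were not called. CPS1 had 928, 153 and 485 CPM in the HN libraries, against 554, 1026 and 611 CPM in the LF libraries (log2 change −0.48 ± 0.622 (SE), adjusted p = 0.805). OTC, which makes citrulline from carbamoyl phosphate, had 474, 40.5 and 187 CPM with HN, against 143, 229.7 and 229 CPM with LF (log2 change 0.22, adjusted p = 0.930). NAGS, which makes the natural activator, had 42.9, 6.21 and 16.1 CPM with HN, against 19.5, 24.95 and 18.4 CPM with LF (log2 change 0.05, adjusted p = 0.981), and ARG2, the mitochondrial arginase, had 23.5, 9.82 and 18.2 CPM with HN, against 14.0, 9.27 and 19.5 CPM with LF (log2 change 0.26, adjusted p = 0.890). The groups overlapped in all 4, and HN 2 was the lowest library for CPS1, OTC and NAGS. ASS1, argininosuccinate synthase, had 10.2, 24.8 and 13.7 CPM with HN, against 288, 7.80 and 14.1 CPM with LF (log2 change −2.67, adjusted p = 0.449), a difference made by LF 1. Among all 29 arginine and urea cycle genes none was called and the median was −0.09.

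Genes linked to fibre and to ileal uptake were not called either. The 12 short-chain fatty acid transporters and receptors tested had a median of −0.28 (−0.36 to 0.073 over the single omissions), with 7 below 0 and 5 above. In 3 all HN libraries lay above LF (25.0%, against 9.24% of all tested genes) and in 1 below (8.33%, against 8.10%). Among the 3 was SLC16A7, a monocarboxylate transporter, with 6.70, 6.39 and 9.90 CPM with HN, against 2.46, 4.09 and 3.51 CPM with LF (log2 change 1.195, adjusted p = 0.0864). SLC16A4, of the same family, had 5.63, 6.39 and 3.84 CPM with HN, against 2.97, 0.927 and 0.731 CPM with LF (log2 change 1.75, adjusted p = 0.163). Bile acid and sterol transport genes (15 tested) had a median of −0.06, and NR1H4, the bile acid receptor, had 25.7, 43.1 and 7.10 CPM with HN, against 222, 9.66 and 10.4 CPM with LF, highest in LF 1. Enterocyte and brush border genes (29 tested) had a median of −0.13, which was −0.98 to 0.32 over the single omissions and 0.80 without the libraries high in FABP6. TINAG, a basement membrane protein, had 20.3, 10.3 and 15.4 CPM with HN, against 54.8, 26.4 and 33.9 CPM with LF (log2 change −1.33, adjusted p = 0.135), with the groups apart. Of the antioxidant genes controlled by NRF2 none of 26 was called, 19 had a change below 0 and the median was −0.36. All HN libraries lay above LF in 3 (11.5%, against 9.24% of all tested genes) and below in 3 (11.5%, against 8.10%). SLC7A11, the cystine transporter, had the largest rise of that list, with 5.18, 8.80 and 2.56 CPM with HN, against 1.81, 0.618 and 1.02 CPM with LF (log2 change 2.24, adjusted p = 0.0801).

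The called genes were mostly long. Their median deposited length was 7052 bases, against 3721 bases over all tested genes, and 247 of 283 were longer than that. With the tested genes cut by length into 10 bins of equal size, from the shortest to the longest, the share called higher was 0.132%, 0.0662%, 0.331%, 0.662%, 1.19%, 1.13%, 1.85%, 3.51%, 4.64% and 5.23%. The median log2 change ran between −0.28 in the shortest bin and 0.22 in the longest. In the shortest bin 17.6% of genes had all HN libraries below LF, and in the longest 21.9% had them above. Called genes were moderately expressed, with a median of the mean log2 CPM of 4.86, against 4.47 over all tested genes. With the length trend removed from each library, 187 genes were called higher and 2 lower, all 187 among the 283. Lists with called members were long too, with median lengths of 5861.5 (USP), 6088.5 (chromatin remodelling) and 6446 bases (SMC and cohesin). In that fit their median log2 changes went from 0.17 to 0.05, from 0.12 to −0.00064 and from 1.47 to 1.32. The ZNF median went from 0.12 to 0.05, and that of cullins and KLHL adaptors from 0.09 to −0.03.

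**Figure D5:**
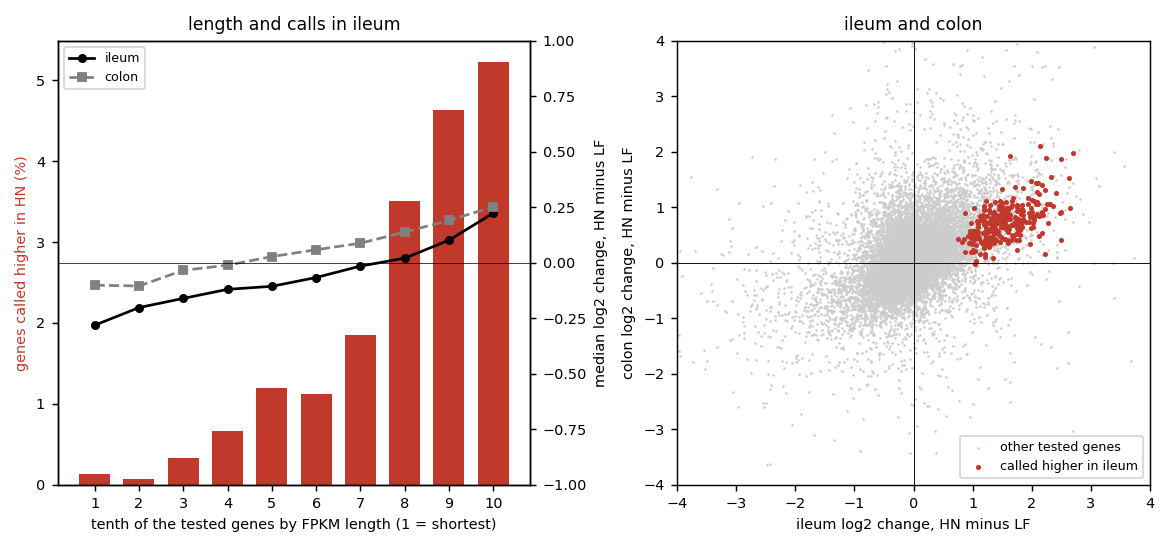
Left, percentage of tested ileum genes called higher in HN (bars) and median log2 change in ileum (circles) and colon (squares) by bin of deposited length (10 bins of equal size), with a share of 0.132% in the shortest bin and 5.23% in the longest. Right, log2 change (HN minus LF) in colon against that in ileum for 15049 of 15103 genes within 4 log2 units, with the 283 called genes in red.

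The ileum libraries of the single supplements give the other corners of the design, and they share the LF libraries with this comparison. PGAP1 averaged 107 ± 27.4 CPM with HN, 45.3 ± 5.39 with HF, 155 ± 22.2 with LN and 24.8 ± 2.11 with LF (SD, n = 3 each). PIK3C2A averaged 27.8 ± 2.54 CPM with HN, 8.87 ± 1.82 with HF, 53.9 ± 34.6 with LN and 4.44 ± 0.123 with LF. RICTOR averaged 42.7 ± 12.6 CPM with HN, 13.9 ± 3.29 with HF, 51.3 ± 20.7 with LN and 9.14 ± 2.49 with LF. In these 3 genes LN was the highest mean and HF lay nearer to LF. PPP1R3B averaged 34.5 ± 3.22 CPM with HN, 39.7 ± 7.52 with HF, 40.2 ± 1.99 with LN and 60.8 ± 9.22 with LF, so that all 3 supplemented diets lay below LF.

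Whether both supplements together changed a gene by other than the sum of the single changes was tested as an interaction, (HN minus HF) minus (LN minus LF). No gene of 15103 passed (0%) with edgeR, 672 had an unadjusted p under 0.05, DESeq2 called 26 and voom none. The smallest p belonged to UCP3, a mitochondrial uncoupling protein, with a log2 interaction of −7.82 ± 1.22 (SE, adjusted p = 0.453). ABCB11, the bile salt export pump, ETNK1, ethanolamine kinase, TMEM176A and PGAP1 followed, with −9.64, −1.87, −1.998 and −1.41 (adjusted p = 0.872 each). A p that misses the threshold does not show that the changes add up.

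In the colon of sows on the same diets, also 3 libraries each, no gene was called between HN and LF (1394 at an unadjusted p under 0.05). Of the 283 genes called in the ileum 282 had a colon change above 0, where 53.8% of all tested genes had one, and their median colon change was 0.72, against 0.05 over all genes. PGAP1 averaged 72.5 ± 25.1 CPM in HN colon and 26.7 ± 8.04 CPM in LF colon (SD, n = 3 each; log2 change 1.44, adjusted p = 0.256). ITGB8 averaged 43.2 ± 27.9 CPM in HN colon and 11.8 ± 6.13 CPM in LF colon (log2 change 1.88). P2RY12, CEBPZ and NEMF had ileum changes of 2.496, 2.49 and 2.18 and colon changes of 0.41, 0.91 and 0.54. Shared sows between the tissues are neither stated nor denied in the labels. The colon also had the trend with length, with medians of −0.10 in the shortest and 0.25 in the longest bin.

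The difference between the tissues, ileum change minus colon change, was tested in a fit of all 24 libraries. No gene of 15675 passed (0%) with edgeR, 356 had an unadjusted p under 0.05, DESeq2 called 2 and voom none. PPP1R3B had the smallest p, with a log2 difference of −1.25 ± 0.254 (SE, adjusted p = 0.99996). Its colon change in that fit was 0.48. GATA5, GNL3, G6PC and NOTUM followed, with −6.56, 1.03, −4.62 and −7.09. In this fit 43 genes were called between HN and LF in the ileum, 40 of them among the 283.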

How the data were processed

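RNA from ileum and colon was captured with oligo(dT) beads, reverse transcribed from random primers and read from both ends, per the labels' protocols. Per the submitters' processing notes, fastp 0.22.0, HISAT2 2.1.0, HTSeq 0.9.1 and the genome build Sscrofa11.1 were used, with no settings or strand given, so reads of overlapping and antisense genes cannot be told apart. The table deposited by the authors holds raw read counts per gene and library for 20674 genes and FPKM values (counts per length and library total), which follow from the counts to within 2.10e-07 and were not tested. It also gives gene length in bases and pathway names, per the file headers. All gene IDs matched RefSeq for Sscrofa11.1, and 20663 had the same span. In 25 rows the symbol read as a date and was replaced by the RefSeq symbol of that gene ID.

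The tests ran in edgeR 4.0.16 under R 4.3.3: filterByExpr, TMM scaling, a quasi-likelihood fit of the 12 ileum libraries with 4 diet means, and Benjamini-Hochberg adjustment over 15103 tested genes at a threshold of 0.05. Log2 CPM used a prior count of 2. A fit of all 24 libraries gave the colon values and the difference between tissues. The script was tested on simulated data. DESeq2 1.42.0, voom of limma 3.58.1 and the other alternatives are given in the closing section. The common dispersion had a square root of 0.461. A count of 0 allows up to 3 counts, or 0.151 to 0.251 CPM per ileum library, for counting error only. Gene lists are described by counts and medians, with no test.

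Named genes are the 15 higher genes of smallest adjusted p, the 10 of largest change without overlap, every lower call, the 10 lower genes of smallest p and the 10 of largest fall without overlap (the higher genes and those of largest fall with a mean log2 CPM above 0, genes with a locus number left out), the called members of each list described or else, of up to 4 allowed, the 2 of smallest p, and 10 fixed genes (CPS1, OTC, ASS1, ARG2, NAGS, AKT1, PIK3CA, FABP6, TINAG, IFIH1). A few genes that this rule names are not reported here. For the interaction and the tissue difference they are the 5 of smallest p. The comparison, members and lists were chosen with earlier results of these data known. Of 67 lists 45 are described; the other 22 had no called member, with medians between −1.69 and 0.71. Whether same-numbered HN and LF libraries are pairs is not given in the labels, and the main fit did not take them as pairs.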

Additional observations from a re-analysis of the deposited data

How the results depend on the processing

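The count of 284 genes was 308 with RLE scaling, 255 without the filter on low counts, 912 with DESeq2, 171 with voom, 261 with marker covariates and 189 after removal of the length trend. The number was 43 with all 24 libraries, and 0 with the 6 HN and LF libraries alone, without the 3 libraries high in FABP6, and (chosen after seeing the data) without LF 3 and HN 2 together. Leaving out single libraries gave 0 to 480. With the replicate block it was 0 (1816 genes at an unadjusted p under 0.05), also in the 6 libraries alone. Deviations of HN and LF libraries with the same number correlated at −0.25, −0.52 and 0.08. Regional and muscle marker differences between libraries enter these values, so they cannot show whether the numbers mark a block. DESeq2 called 26 genes for the interaction and 2 for the tissue difference, where edgeR called none. The causes were not tested.

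No called gene changed direction, which follows from how they were chosen. Uncalled genes changed sign as follows. With voom, OTC was −0.33, NAGS −0.46 and FABP6 1.55. With the replicate block OTC was −0.13 and NAGS −0.17, and in the 6 libraries alone with the block OTC was −0.31, NAGS −0.30 and FABP6 6.22. Without the libraries high in FABP6, CDX2 was 0.12, SLC51A 1.40, NR1H4 0.73, ASS1 0.15 and FABP6 6.37. With marker covariates ICOS was −0.27, FCRL4 −0.96, BANK1 −0.47 and NAGS −0.13. Without LF 3 and HN 2 together ICOS was −0.0066, BANK1 −0.28 and APOA4 1.40. Over the single omissions the log2 changes ran −0.065 to 2.37 for LCT, −0.82 to 0.72 for OTC, −0.030 to 0.55 for ARG2, −0.91 to 0.49 for NAGS, −2.01 to 1.39 for SLC51A, −2.30 to 1.34 for NR1H4, −3.22 to 0.57 for ASS1, −8.18 to 5.19 for SLC10A2, −8.76 to 4.98 for CUBN, −7.16 to 10.16 for FABP6 and −2.11 to 0.81 for APOA4. Depth limits genes below about 1 CPM, where 3 counts are 0.151 to 0.251 CPM.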
